A study of Mus musculus with 6 samples.

Results

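The 9 genes described here encode adhesion receptors and carriers of T cells: the integrin alpha chains *Itgae*, *Itgal*, *Itga4* and *Itgav*, the integrin beta chains *Itgb1*, *Itgb2* and *Itgb7*, the selectin ligand carrier *Selplg* and the hyaluronan receptor *Cd44*. They were taken by gene symbol from a table of 24420 genes. The rule for taking them used no measured value, although the set was drawn up with earlier results of these data known. All 9 were among the 10949 genes that passed the low-count filter and were tested.

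Integrins are pairs of an alpha and a beta chain that reach the surface together, so the same alpha chain can form different receptors with different beta chains. Itgal with Itgb2 forms LFA-1, which binds ICAM proteins and arrests lymphocytes on vessel walls. Itga4 forms VLA-4 with Itgb1, which binds VCAM-1 and fibronectin, and the gut-homing receptor of lymphocytes with Itgb7, which binds MAdCAM-1. Itgae pairs with Itgb7 to bind E-cadherin on epithelium, and alpha V integrins, of which Itgav with Itgb1 is an example, bind RGD-containing ligands and can activate latent TGF-beta. Selplg encodes PSGL-1, the protein scaffold whose glycans are bound by selectins during rolling. CD44 binds hyaluronan and marks antigen-experienced T cells.

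RNA was sequenced in 6 libraries of regulatory T (Treg) cells from C57BL/6 female mice, adult by the study's general methods, with lymph nodes given as the tissue. The 3 OGT-sufficient libraries came from Foxp3YFP-Cre/wt Ogtwt/fl and the 3 OGT-deficient libraries from Foxp3YFP-Cre/wt Ogtfl/fl females, so both groups carried a Cre allele and at least 1 floxed *Ogt* allele. OGT is the enzyme that adds O-GlcNAc to proteins inside the cell. *Foxp3* and *Ogt* are both X-linked, the YFP-Cre fusion was heterozygous, and after CD4 bead enrichment the cells were sorted for YFP, so the libraries held the Treg cells that used the Cre allele, in animals whose other Treg cells did not. The sources used here do not state on which X chromosome the floxed allele of the Ogtwt/fl mice lay, nor whether each library came from a separate mouse, so p-values measure the spread between these libraries, which may be technical. The comparison asks whether the adhesion genes of Treg cells differed with loss of OGT.

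Total counts were between 3375454 and 4103552 per library. Of these, 24.2% to 37.1% belonged to the ribosomal RNA entry *Rn45s*, with the lowest share in OGT-sufficient replicate 3. *Ogt* itself, the targeted gene, was lower in every OGT-deficient library, with 327, 266 and 368 counts against 562, 632 and 957. All 11 Treg and CD4 T cell markers had counts in every library, and *Foxp3* lay between 189 and 299 CPM (counts relative to the TMM-scaled library size). All 12 macrophage markers also had counts in every library, and their summed level ran from 1166 to 3904 CPM. The libraries with the least macrophage RNA were OGT-sufficient replicate 3 and OGT-deficient replicate 1. OGT-sufficient replicate 3 further stood apart by 18346 detected genes, where the other libraries had 14412 to 15197, and by the highest B cell and neutrophil marker sums, 334 and 139 CPM against at most 166 and 28.2. In bulk RNA, fewer cells of a type and less RNA per cell cannot be told apart. Macrophages and other leukocytes also express several of the 9 genes, *Itgb2*, *Itgav*, *Itgb1* and *Cd44* among them.

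*Itgb1* stood out among the 9 genes, with a level in OGT-deficient Treg cells that was 0.567 of that in OGT-sufficient cells. *Itga4* was lower by a smaller amount, *Selplg* was higher, and the 6 other genes had overlapping groups. By edgeR's quasi-likelihood test no member was called at an FDR of 0.1, a call made for 3 of all genes tested (0.0274%). The targeted gene *Ogt* was not called either (log2 fold change -1.21, adjusted p = 0.191 by the same test). A gene without a call is therefore not shown to be unchanged. At an unadjusted p under 0.05 there were 3 members of 9, compared with 777 of the 10949 genes (7.1%). Of these members *Itga4* and *Itgb1* were lower, a call made for 4.01% of all genes, and *Selplg* was higher, a call made for 3.09%. The same 3 members were those whose OGT-deficient samples did not overlap the OGT-sufficient samples, which held for 13.2% of all genes. The 9 members had a median log2 fold change of -0.12, beside -0.02 for all genes tested.

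**Figure D1:**
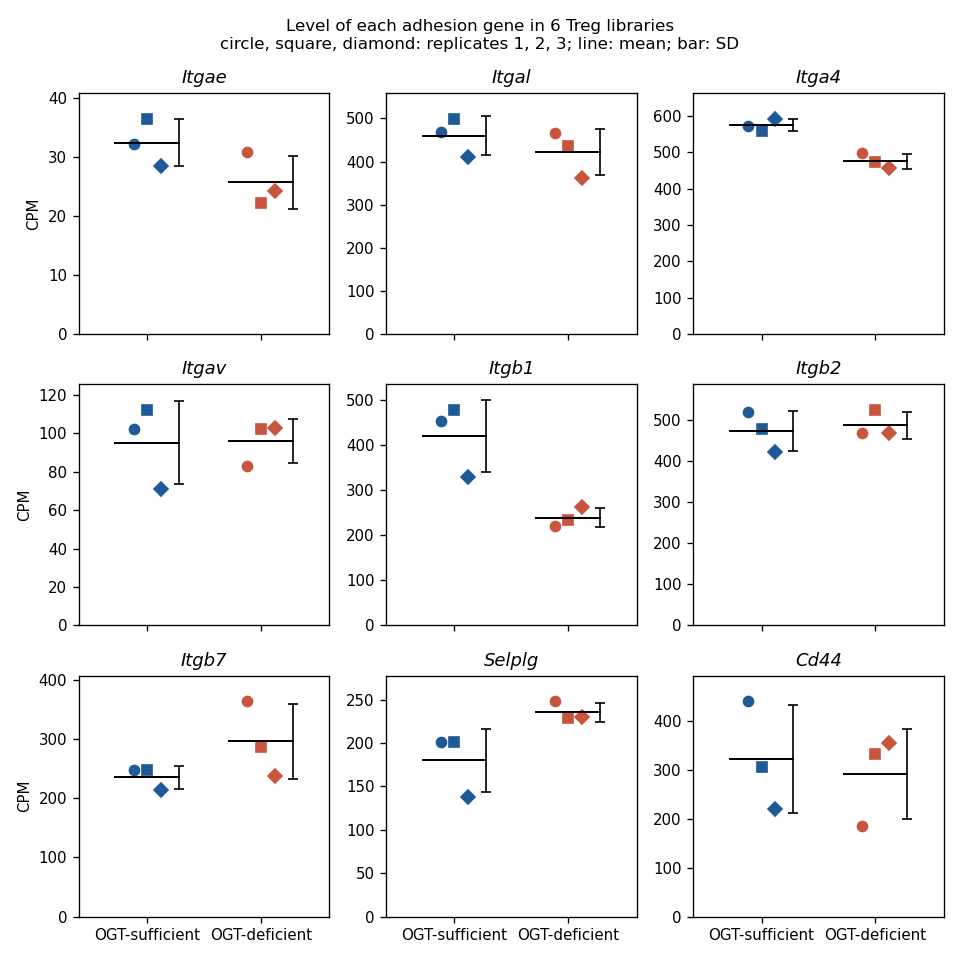
Level in CPM of the 9 adhesion genes in the 6 libraries, with each axis starting at 0, points for single libraries (circle, square and diamond for replicates 1, 2 and 3), a line at the group mean and a bar of 1 SD (n = 3). The OGT-deficient *Itgb1* points (220.4 to 261 CPM) all lie below the OGT-sufficient ones (329 to 477 CPM), whereas the *Cd44* points of the groups are spread over each other.

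Compared per kilobase of exon, *Itgb2* was the most abundant member in OGT-sufficient cells, at 159 ± 16.6 CPM per kb (SD, n = 3), and its samples lay above those of every other member. *Itgb1* (110.0 ± 20.7), *Selplg* (97.1 ± 19.6) and *Itgb7* (88.0 ± 7.29 CPM per kb) followed, each overlapping its neighbour in this order. *Itgal* came next at 72.1 ± 6.97 CPM per kb, above *Itga4* at 58.8 ± 1.72 without overlap, and *Cd44* at 56.9 ± 19.5 spread over both. *Itgav* (13.5 ± 3.06) and *Itgae* (8.43 ± 1.03 CPM per kb) were the least abundant, and their samples overlapped neither each other nor those of another member. In OGT-deficient cells *Itgb1* was at 62.4 ± 5.50 CPM per kb. There it stood below *Selplg* (126.9 ± 5.82) and *Itgb7* (110.5 ± 23.7) without overlap, and within the range of *Itgal* (66.2 ± 8.38 CPM per kb). Lengths were those of merged GENCODE M21 exons, and 11.5% of the *Itga4* exon bases are also covered by *Cerkl* on the opposite strand, while those of the other members are not shared with another gene.

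The promoter windows of *Itgb1*, *Itgb7* and their shared partner *Itga4*, the chains on which the comparisons turn, were read from a set of RefSeq promoters (GRCm38.p6). The set used here held windows for 5 of the 9 members (*Itga4*, *Itgav*, *Itgb1*, *Itgb7* and *Cd44*). The 250 bases before each start are given 5' to 3' on the strand of the gene, and capitals mark matches to the motifs searched.

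Itgb1, chr8:128685404-128685653, plus strand: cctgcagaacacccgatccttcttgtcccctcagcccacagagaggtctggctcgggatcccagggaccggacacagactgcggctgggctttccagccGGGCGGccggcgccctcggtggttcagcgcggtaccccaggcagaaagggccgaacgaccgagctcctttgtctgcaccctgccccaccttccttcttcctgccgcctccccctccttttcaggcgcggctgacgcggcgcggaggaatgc

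Itga4, chr2:79255176-79255425, plus strand: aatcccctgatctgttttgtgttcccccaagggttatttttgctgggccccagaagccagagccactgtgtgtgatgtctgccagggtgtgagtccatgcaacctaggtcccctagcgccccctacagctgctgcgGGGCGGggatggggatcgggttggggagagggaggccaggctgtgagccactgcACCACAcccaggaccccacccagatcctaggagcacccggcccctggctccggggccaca

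Itgb7, chr15:102231936-102232185, minus strand: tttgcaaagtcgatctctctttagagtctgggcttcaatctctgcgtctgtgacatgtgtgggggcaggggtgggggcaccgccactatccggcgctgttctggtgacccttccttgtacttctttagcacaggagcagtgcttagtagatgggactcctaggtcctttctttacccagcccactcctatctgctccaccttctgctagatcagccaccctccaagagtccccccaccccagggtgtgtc

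The motifs, searched on both strands, were the GC box (GGGCGG), an ETS site (CCGGAAGT), a RUNX site (TGTGGT), a STAT site (TTCNNNGAA) and an AP-1 site (TGANTCA). The *Itgb1* window held 1 GC box, the *Itga4* window 1 GC box and 1 RUNX match, and those of *Itgb7*, *Itgav* and *Cd44* none of the 5 motifs. Among 32851 windows of the same length, 32.7% held a GC box, 2.88% the ETS letters, 14.0% the RUNX letters, 7.02% the STAT letters and 6.75% the AP-1 letters. The GC content was 68.0% for *Itgb1*, 64.0% for *Itga4* and 56.0% for *Itgb7*, beside a median of 52.4% over all windows. These are matches of letters in a window, and binding was not measured.

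Among the beta chains, *Itgb1* encodes the common partner of the VLA receptors and lies on the plus strand of chromosome 8, from 128685654 to 128733200 (GRCm38). It was measured at 452, 477 and 329 CPM in OGT-sufficient replicates 1, 2 and 3, and at 220.4, 232 and 261 CPM in OGT-deficient replicates 1, 2 and 3. The lowest OGT-sufficient sample, replicate 3, was still above the highest OGT-deficient sample. The mean was 419 ± 79.0 CPM in OGT-sufficient and 238 ± 21.0 CPM in OGT-deficient cells (SD, n = 3), and the log2 fold change was -0.82 with a standard error of 0.16. The unadjusted p was 0.000557 and the adjusted p 0.212 by edgeR's quasi-likelihood test, which placed *Itgb1* at rank 27 of the genes tested. Its p stayed under 0.05 in all 16 alternative settings, with log2 fold changes between -0.997 and -0.713. The adjusted p ranged from 0.0016 to 0.935 over those settings and passed 0.1 in 5 of them. These were DESeq2 (0.0114), edgeR's exact test (0.0053), no low-count filter (0.0035), leaving out OGT-sufficient replicate 3 (0.0453) and leaving out the 2 libraries lowest in macrophage genes (0.0016). The last 2 settings both leave out OGT-sufficient replicate 3, the OGT-sufficient library lowest in *Itgb1*. The last of them was added after seeing the data. Without the 2 libraries lowest in macrophage genes the log2 fold change was -0.91.

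*Itgb7*, the partner of the gut and epithelial receptors, pointed the other way without passing the test. It is encoded on the minus strand of chromosome 15, from 102215995 to 102231944. Its levels were 247, 247 and 213 CPM in OGT-sufficient replicates 1 to 3 and 364, 287 and 238 CPM in OGT-deficient replicates 1 to 3. OGT-deficient replicate 1 was the highest sample, and replicate 3 lay inside the OGT-sufficient range. The means were 236 ± 19.6 and 297 ± 63.5 CPM (SD, n = 3), and the log2 fold change was 0.33 (standard error 0.16, edgeR adjusted p = 0.725, unadjusted p = 0.0717). Without OGT-deficient replicate 3 it was 0.50 with an unadjusted p of 0.0131, and without OGT-deficient replicate 1 it was 0.16. Without the 2 libraries lowest in macrophage genes it was 0.09, with an unadjusted p of 0.492.

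*Itgb2*, the beta chain of the leukocyte integrins, was measured at 519, 478 and 421 CPM in OGT-sufficient and 467, 524 and 469 CPM in OGT-deficient replicates 1 to 3. The groups overlapped almost completely, and the log2 fold change was 0.04 (standard error 0.12, edgeR adjusted p = 0.951). Without OGT-sufficient replicate 3 it was -0.03.

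**Figure D2:**
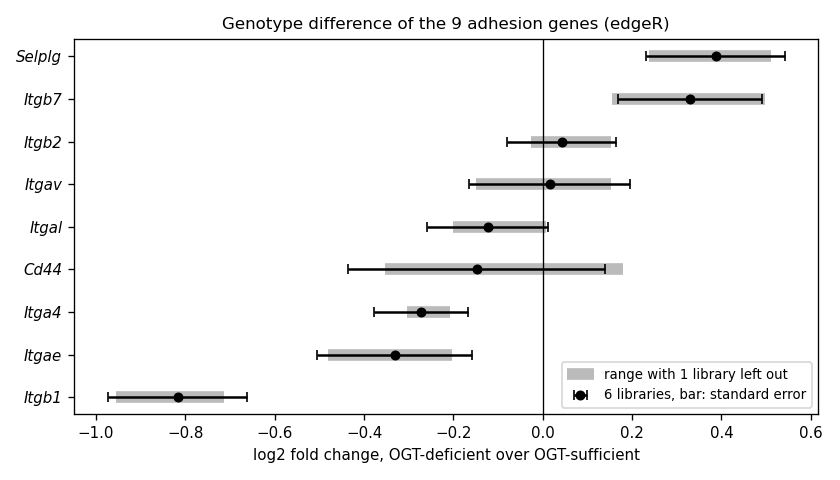
Log2 fold change of each member in OGT-deficient over OGT-sufficient Treg cells by edgeR (point), its standard error (black bar) and the range obtained when each of the 6 libraries was left out in turn (grey band). *Itgb1* at -0.82 is the farthest from 0, and the grey bands of *Itgal*, *Itgav*, *Itgb2* and *Cd44* reach both sides of 0.

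Among the alpha chains, *Itga4* was the only one whose groups did not overlap. It is encoded on the plus strand of chromosome 2, from 79255426 to 79333123. Its levels were 573, 558 and 591 CPM in OGT-sufficient replicates 1 to 3, and 497, 473 and 455 CPM in OGT-deficient replicates 1 to 3. The replicates of each group lay close together, at 574 ± 16.8 and 475 ± 20.6 CPM (SD, n = 3), and the log2 fold change was -0.27 with a standard error of 0.11. The unadjusted p was 0.0292 and the adjusted p 0.662 by edgeR's quasi-likelihood test. The unadjusted p was under 0.05 in 7 of 16 alternative settings. It was 0.0961 without OGT-sufficient replicate 1 and 0.0533, 0.124 and 0.139 without OGT-deficient replicates 1, 2 and 3. Whether the count table assigned reads by strand is not stated, so reads of *Cerkl* in the shared exon bases cannot be told apart from those of *Itga4*.

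*Itgae*, encoding CD103, was the least abundant member, with 121, 136 and 109 counts in OGT-sufficient and 120, 88 and 93 counts in OGT-deficient replicates 1 to 3. OGT-deficient replicate 1 reached the OGT-sufficient range and the other OGT-deficient replicates lay below it. The means were 32.4 ± 3.96 and 25.8 ± 4.52 CPM (SD, n = 3), with a log2 fold change of -0.33 (standard error 0.17, edgeR adjusted p = 0.750). Without OGT-deficient replicate 1 it was -0.48, with an unadjusted p of 0.0292, against 0.0888 in all 6 libraries, and without OGT-deficient replicate 2 it was -0.20. Without the 2 libraries lowest in macrophage genes it was -0.56, with an unadjusted p of 0.0065.

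*Itgal*, the alpha chain of LFA-1, was measured at 469.7, 499 and 412 CPM in OGT-sufficient and 467, 437 and 363 CPM in OGT-deficient replicates 1 to 3. The groups overlapped, and the log2 fold change was -0.12 (standard error 0.13, edgeR adjusted p = 0.877). It was 0.01 without OGT-deficient replicate 3, and -0.28 with an unadjusted p of 0.0399 without the 2 libraries lowest in macrophage genes. *Itgav* was measured at 102, 112 and 70.8 CPM in OGT-sufficient and 83.0, 103 and 103 CPM in OGT-deficient replicates 1 to 3, a log2 fold change of 0.02 (standard error 0.18, edgeR adjusted p = 0.986). Its lowest samples were OGT-sufficient replicate 3 and OGT-deficient replicate 1, which were also the libraries lowest in macrophage markers. The part of that RNA in the *Itgav* values was not tested. Without OGT-sufficient replicate 3 the log2 fold change of *Itgav* was -0.15.

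*Selplg*, the PSGL-1 gene on the minus strand of chromosome 5 from 113818536 to 113832644, had the lowest p of the members that were higher. Its levels were 201, 201 and 138 CPM in OGT-sufficient and 248, 229 and 229 CPM in OGT-deficient replicates 1 to 3. Every OGT-deficient sample was above every OGT-sufficient sample, and OGT-sufficient replicate 3 was far below the rest. The means were 180.1 ± 36.3 and 235 ± 10.8 CPM (SD, n = 3), and the log2 fold change was 0.39 (standard error 0.15) with an unadjusted p of 0.0341 and an adjusted p of 0.669 by edgeR. The unadjusted p was under 0.05 in 11 of 16 alternative settings, and was 0.0862, 0.0553 and 0.0512 without OGT-deficient replicates 1, 2 and 3. Without OGT-sufficient replicate 3 the log2 fold change was 0.24, with an unadjusted p of 0.0476, and it was 0.19 when the 2 libraries lowest in macrophage genes were left out, with an unadjusted p of 0.122.

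*Cd44* was the member with the largest SD relative to its mean in both groups. Its levels were 439, 306 and 220.2 CPM in OGT-sufficient and 185, 331 and 355 CPM in OGT-deficient replicates 1 to 3, so that both groups covered nearly the same range. The means were 322 ± 110.4 and 290.4 ± 91.6 CPM (SD, n = 3), with a log2 fold change of -0.15 (standard error 0.29, edgeR adjusted p = 0.926). The difference was 0.18 without OGT-sufficient replicate 1, 0.09 without OGT-deficient replicate 1, and -0.35 without OGT-sufficient replicate 3. As for *Itgav*, the lowest samples were the libraries lowest in macrophage markers, at 1297 CPM in OGT-sufficient replicate 3 and 1166 CPM in OGT-deficient replicate 1 against 2504 to 3904 CPM in the others. All 12 macrophage markers contributed to these sums. Without both libraries the log2 fold change of *Cd44* was -0.12.

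The T cell genes *Cd3d*, *Cd3e*, *Cd3g*, *Cd4* and *Cd5* gave a summed level of 1859, 1865 and 1441 CPM in OGT-sufficient and 2263, 2035 and 1704 CPM in OGT-deficient replicates 1 to 3. OGT-sufficient replicate 3, lowest in this sum, was also lowest in *Itgb7* and *Selplg*, and OGT-deficient replicate 1, highest in this sum, was highest in both. When libraries were instead scaled to these 5 genes, the median log2 fold change of all genes moved by -0.22. *Itgb1* was then at -0.997 and *Itga4* at -0.50, and *Itgae* at -0.55 newly had an unadjusted p under 0.05 (0.0255). *Itgal* was at -0.35 with an unadjusted p of 0.0676, while *Selplg* at 0.19 and *Itgb7* at 0.09 kept their sign without passing an unadjusted p of 0.05, and *Itgb2* (-0.16) and *Itgav* (-0.16) changed sign. The part of a varying T cell share in these values was not tested.

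**Figure D3:**
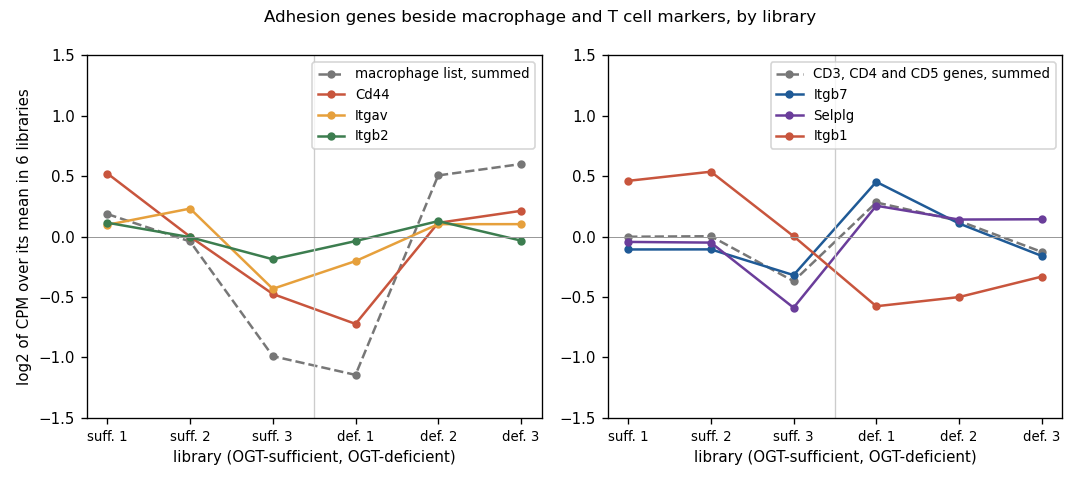
Log2 of each level over its mean in the 6 libraries, for *Cd44*, *Itgav* and *Itgb2* beside the summed macrophage markers (left), and for *Itgb7*, *Selplg* and *Itgb1* beside the summed CD3, CD4 and CD5 genes (right). *Cd44* and *Itgav* dip in OGT-sufficient replicate 3 and OGT-deficient replicate 1 where the macrophage sum is at 1297 and 1166 CPM, and *Itgb1* is lower in all 3 OGT-deficient libraries.

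Gene pairs were then compared as the ratio of their counts within each library, which does not depend on how libraries are scaled. The integrin pairs were the alpha and beta chain of a receptor, except *Itgb7* and *Itgb1*, which share the partner Itga4. Of 8 pairs, 6 of them of integrin chains, 4 did not overlap between groups. Each of these 4 holds *Itgb1* or *Itgb7*, so they are not separate observations. The share over other gene pairs was not computed, and of single genes tested 13.2% did not overlap in CPM. An exact two-sided permutation test of 3 libraries against 3 cannot give a p under 0.1, and this smallest value was reached by these 4 pairs (0.2 after Benjamini-Hochberg adjustment over the 8 pairs).

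The largest difference was in *Itgb7* relative to *Itgb1*, the alternative partners of Itga4. The ratio was 0.546, 0.519 and 0.648 in OGT-sufficient replicates 1 to 3, and 1.65, 1.24 and 0.912 in OGT-deficient replicates 1 to 3. *Itgb7* counts were thus below *Itgb1* counts in every OGT-sufficient library and above them in OGT-deficient replicates 1 and 2. The mean log2 ratio was -0.81 ± 0.17 and 0.30 ± 0.43 (SD, n = 3), a difference of 1.11 (2.16-fold, exact p = 0.1), and it stayed between 0.90 and 1.33 with each library left out.

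*Itgav* relative to *Itgb1* was higher, at 0.226, 0.235 and 0.215 in OGT-sufficient and 0.376, 0.441 and 0.393 in OGT-deficient replicates (log2 difference 0.84, exact p = 0.1). Alone, *Itgav* had a log2 fold change of 0.02 and *Itgb1* of -0.82. *Itga4* relative to *Itgb7* was lower, at 2.32, 2.26 and 2.77 in OGT-sufficient and 1.36, 1.65 and 1.91 in OGT-deficient replicates (log2 difference -0.58, exact p = 0.1), and the difference was -0.36 without the 2 libraries lowest in macrophage genes. *Itgae* relative to *Itgb7* was lower as well, at 0.130, 0.148 and 0.134 against 0.0846, 0.0773 and 0.102 (log2 difference -0.65, exact p = 0.1). The other pairs overlapped between groups. *Itga4* relative to *Itgb1* had a log2 difference of 0.53 (exact p = 0.2), and *Itgal* relative to *Itgb2*, the chains of LFA-1, one of -0.17 (exact p = 0.3).

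**Figure D4:**
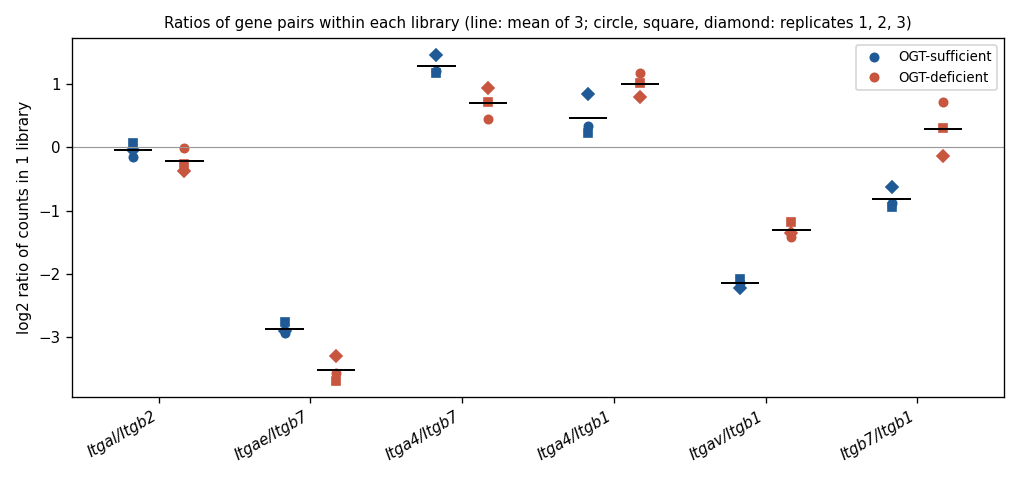
Log2 ratio of the counts of 2 genes in the same library for the 6 gene pairs of integrin chains, with OGT-sufficient libraries in blue, OGT-deficient libraries in red, a marker per replicate and a line at the group mean. *Itgb7* over *Itgb1* moves from -0.81 to 0.30, and the *Itgal* over *Itgb2* values of the groups overlap.

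The other genes of the adhesion pathway were followed in 9 lists. Of 127 listed genes 98 were tested, and 17 had an unadjusted p under 0.05 by edgeR, 8 lower and 9 higher, a call made for 7.1% of all genes tested, 4.01% lower and 3.09% higher. None passed an FDR of 0.1, nor did any in the 16 alternative settings, DESeq2 and edgeR's exact test included. Their median log2 fold change was 0.05. The genes given here as lower or higher are those under this unadjusted p. Among 11 other integrin subunits tested, *Itga6*, a laminin receptor chain that also pairs with Itgb1, was higher (200.5 ± 31.4 to 274 ± 37.5 CPM, SD, n = 3), at a log2 fold change of 0.45 (edgeR adjusted p = 0.565), and passed in 15 of 16 alternative settings, the exception being the T cell scaling. *Itga2*, the collagen receptor chain that pairs with Itgb1, was lower at a low level, from 5.67 ± 2.46 to 2.91 ± 0.34 CPM (log2 fold change -0.95, adjusted p = 0.670 by edgeR). It passed in 9 of 16 alternative settings, and of the fits without 1 library only without OGT-sufficient replicate 1. *Itgad*, abundant in some tissue macrophages, ranged from 40.8 to 289 CPM with its lowest samples in the libraries lowest in macrophage markers, and had a log2 fold change of 0.12.

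Among the selectins and selectin ligand carriers, the barely detected *Selp*, encoding P-selectin, was higher (2.49 ± 1.61 to 6.15 ± 1.66 CPM, SD, n = 3), but not without OGT-deficient replicate 1 or OGT-sufficient replicate 2. *Spn*, encoding CD43, another heavily glycosylated surface protein, was abundant at 541 to 745 CPM with a log2 fold change of 0.09. Of 12 genes for the glycosylation and sulfation of selectin ligands, 2 were lower and none higher. *Fut7*, the fucosyltransferase that completes the sialyl Lewis X structure on PSGL-1, was near the detection limit, at 3.73, 4.02 and 3.15 CPM in OGT-sufficient and 2.83, 0.756 and 1.04 CPM in OGT-deficient replicates 1 to 3 (log2 fold change -1.22, standard error 0.49, adjusted p = 0.669 by edgeR). The groups did not overlap, but 3 counts correspond to 0.756 to 0.805 CPM, and the call was lost without OGT-deficient replicate 2 or 3 and without OGT-sufficient replicate 1 or 2. *Chst2*, a sulfotransferase, was at 23.7 ± 1.502 and 17.03 ± 2.36 CPM (log2 fold change -0.48, adjusted p = 0.577 by edgeR), a call lost without OGT-deficient replicate 1 or 2 and without OGT-sufficient replicate 1. *B4galt1* and *C1galt1*, the most abundant enzymes of the list, had log2 fold changes of 0.05 and -0.02.

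Inside-out activation is the signalling that switches integrins to high affinity. Among 19 genes tested that act in it or regulate it, *Vcl* and *Tln2* were lower and none higher. The median log2 fold change of the 19 genes was 0.09. Of them, 6 did not overlap between groups, in both directions, beside 13.2% of all genes tested. *Vcl*, encoding the talin-binding adaptor vinculin, was measured at 21.6, 24.1 and 32.0 CPM in OGT-sufficient and 15.7, 17.9 and 16.2 CPM in OGT-deficient replicates 1 to 3, without overlap (log2 fold change -0.64, standard error 0.19, adjusted p = 0.516 by edgeR). *Tln2*, the minor talin, was at 4.50 ± 1.35 and 1.88 ± 0.52 CPM (log2 fold change -1.25, adjusted p = 0.551 by edgeR). OGT-sufficient replicate 3 was the highest sample for both genes. Without the 2 libraries lowest in macrophage genes neither passed an unadjusted p of 0.05, at -0.42 for *Vcl* and -0.77 for *Tln2*. *Tln1*, the main talin of lymphocytes, and *Flna*, filamin A, were far more abundant, at 913 to 1192 and 1018 to 1256 CPM, with log2 fold changes of 0.09 and -0.09. None of 14 tested genes of outside-in signalling and focal adhesion had an unadjusted p under 0.05, and their median log2 fold change was 0.00. Its most abundant members, the actinin genes *Actn1* and *Actn4*, were at 0.16 and 0.03.

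Of 7 integrin ligands tested, *Icam2*, a ligand of LFA-1, was higher (29.5 ± 1.78 to 36.7 ± 2.60 CPM, log2 fold change 0.32, adjusted p = 0.683 by edgeR). It passed in 6 of 16 alternative settings, and of the fits without 1 library only without OGT-sufficient replicate 3 and without OGT-deficient replicate 3. *Vcam1*, the ligand of VLA-4 and a gene of macrophages and stromal cells, ranged from 439 to 2249 CPM. Its lowest samples were again OGT-deficient replicate 1 and OGT-sufficient replicate 3. *Tgfb1*, the next most abundant gene of this list, ranged from 104 to 181 CPM with a log2 fold change of 0.00. Among 10 genes of CD44 linkers, hyaluronan enzymes and sheddases, 2 were lower. *Nf2*, encoding merlin, which binds the CD44 tail, was at 56.9, 59.0 and 67.4 CPM in OGT-sufficient and 43.7, 45.6 and 48.0 CPM in OGT-deficient replicates 1 to 3, without overlap (log2 fold change -0.42, adjusted p = 0.516 by edgeR). *Hmmr*, a hyaluronan-binding protein of dividing cells, was at 45.0 ± 10.6 and 30.2 ± 3.29 CPM (log2 fold change -0.58, adjusted p = 0.565 by edgeR), with overlap, and did not pass without OGT-sufficient replicate 1. The abundant linkers *Msn* and *Ezr*, encoding moesin and ezrin, had log2 fold changes of 0.16 and 0.09. Without the 2 libraries lowest in macrophage genes, *Selp* (0.65), *Icam2* (0.35), *Chst2* (-0.43), *Nf2* (-0.31) and *Hmmr* (-0.38) did not pass an unadjusted p of 0.05, and *Fut7* (-2.07), *Itga2* (-1.05) and *Itga6* (0.37) did.

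**Figure D5:**
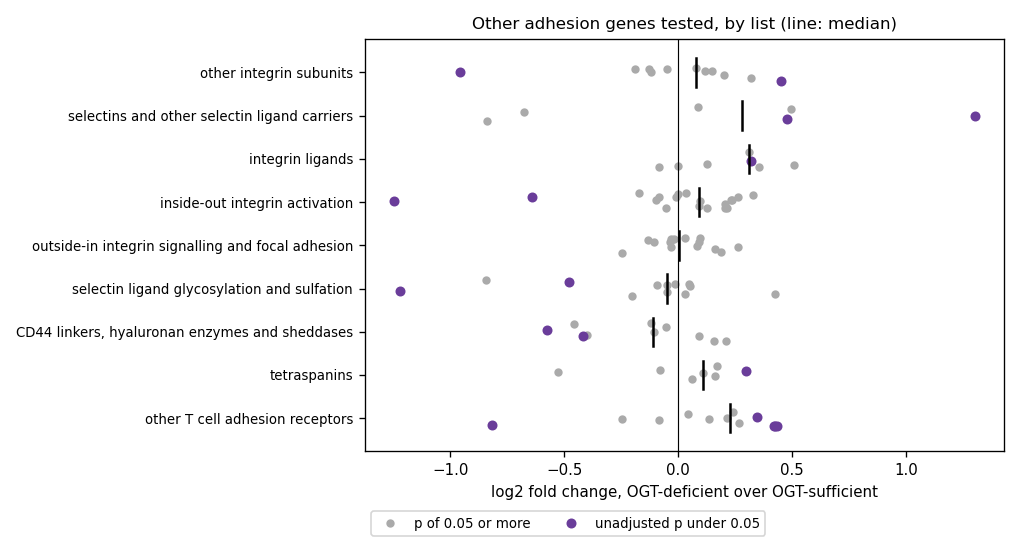
Log2 fold change in OGT-deficient over OGT-sufficient Treg cells of the tested genes of 9 adhesion lists, with genes at an unadjusted p under 0.05 by edgeR in purple, other genes in grey, random vertical offsets and a line at each list's median. The 14 genes of outside-in signalling lie close to 0, and purple points stand on the left for inside-out activation, glycosylation and CD44 linkers.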

How the data were processed

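RNA of sorted YFP+ Treg cells in 6 libraries was sequenced as paired-end reads. Per the labels and the paper, the authors trimmed reads with Trimmomatic 0.33 and aligned them with Bowtie2 2.2.4.0. The paper names Cuffquant for quantification, whereas the submitters' processing notes name featureCounts and the mm10 build. The authors deposited whole numbers per gene and library, used here as raw counts. Strand settings and what was done with reads that match several genes are not given in the sources used here. The other deposited columns hold the authors' group means, fold changes, differences, p-values and adjusted p-values, and were not used.

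Counts were scaled by TMM and tested on genotype with edgeR 4.0.16 (R 4.3.3), by its quasi-likelihood test, after filterByExpr with a minimum count of 10, with Benjamini-Hochberg adjustment over all 10949 genes tested. Standard errors were derived from the F statistic of each gene. The test was run on simulated counts with 200 genes changed, each by more than any member differed here. Its power at the smaller differences of the members was not assessed. Pairs of replicates differed by a chi-square of 3.46 to 24.2 per degree of freedom, so none was counted as a duplicate. The range of total counts limits the precision, and a floor of 3 counts was 0.756 to 0.805 CPM, which covers counting error only.

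Alternatives were DESeq2 1.42.0, edgeR's exact test, other scalings and filters, a block for the replicate number, and each library left out in turn. Scaling to T cell genes and leaving out both libraries lowest in macrophage genes were added after seeing the data. Genes named are the 9 members, *Ogt* and the genes of the ratios, and of each list those at an unadjusted p under 0.05 (at most 6) and the 2 with the highest mean CPM, besides cell type markers and *Rn45s*. A further gene and the 2 ratios that use it are counted among the lists and pairs but are not reported here. The members and lists were chosen with earlier results of these data known. Exon lengths and coordinates came from GENCODE M21 (GRCm38, the mm10 assembly) and promoter windows from RefSeq GRCm38.p6.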

Additional observations from a re-analysis of the deposited data

How the results depend on the processing

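The number of members past an FDR of 0.1 was 0, but 1 with DESeq2, with edgeR's exact test, without a low-count filter and without the 2 libraries lowest in macrophage genes, and 0 to 1 with each library left out (1 without OGT-sufficient replicate 3). In each of these cases the member was *Itgb1*. Members at an unadjusted p under 0.05 numbered 3, and 1 to 3 with each library left out (1, *Itgb1*, without OGT-deficient replicate 2). Without the 2 libraries lowest in macrophage genes they numbered 4, with *Itgae* and *Itgal* but not *Selplg* beside *Itga4* and *Itgb1*. Pathway genes at this threshold numbered 17, but 11 with DESeq2, 10 without the 2 libraries lowest in macrophage genes and 9 to 19 with each library left out (9 without OGT-deficient replicate 2 and 11 without OGT-deficient replicate 1). Pairs without overlap numbered 4, and 4 to 7 with each library left out (7 without OGT-deficient replicate 3). Leaving out a library cannot create overlap, so this count could only stay or rise and does not measure stability. The log2 fold change of *Itgav* was -0.017 with library size only, -0.16 with T cell scaling and -0.063 without the 2 libraries, and that of *Itgb2* was -0.16 and -0.0060 in the latter settings. With each library left out it ranged from -0.20 to 0.0077 for *Itgal*, -0.15 to 0.15 for *Itgav*, -0.026 to 0.15 for *Itgb2* and -0.35 to 0.18 for *Cd44*. *Itgae*, *Itga4*, *Itgb1*, *Itgb7* and *Selplg* kept their sign in all 16 settings. The cause of these changes was not tested. At a count of 10 or more in every sample, and with the other scalings, no member passed an FDR of 0.1. With library size only, 66.8% of all genes at an unadjusted p under 0.05 were lower, beside 56.5% with TMM, and with T cell scaling 93.1%.

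Same-numbered samples did not deviate together (correlations of -0.281, 0.0073 and -0.118), so the numbers were not taken to pair the samples. The libraries also differed in macrophage markers, so these correlations cannot exclude a pairing. With the replicate block 2 members, *Itgb1* and *Selplg*, had an unadjusted p under 0.05, none passed an FDR of 0.1, 15 pathway genes had an unadjusted p under 0.05, and the log2 fold change of *Itgb1* was -0.80 (adjusted p = 0.715 by edgeR). The mean paired difference of each log2 ratio equals the unpaired one by construction, so it is not a check on pairing.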

Other observations

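Of 12 other adhesion receptors of T cells tested, 4 were higher and 1 lower in OGT-deficient Treg cells at an unadjusted p under 0.05 by edgeR, calls made for 3.09% and 4.01% of all genes tested, and none passed an FDR of 0.1. The median log2 fold change was 0.23. *Slamf1*, a self-binding receptor of the SLAM family, was measured at 51.6, 55.0 and 50.6 CPM in OGT-sufficient and 79.1, 66.8 and 64.2 CPM in OGT-deficient replicates 1 to 3, without overlap (log2 fold change 0.42, standard error 0.13, adjusted p = 0.524 by edgeR). *Cd2*, a costimulatory adhesion receptor, and its ligand in the mouse, *Cd48*, had log2 fold changes of 0.42 and 0.34. *Cd2* lay at 317 to 424 CPM in OGT-sufficient and 415 to 589 CPM in OGT-deficient libraries, with overlap, and *Cd48* at 66.6 to 85.4 and 95.8 to 99.4 CPM without. *Cd96*, a receptor for nectin-like proteins, was at 87.9 ± 22.6 and 118.7 ± 9.996 CPM (SD, n = 3). With 1 library left out, the call was lost for *Cd2* without OGT-deficient replicate 1 or 2 or OGT-sufficient replicate 3, for *Cd48* without OGT-deficient replicate 2, and for *Cd96* without OGT-deficient replicate 1 or 2 or OGT-sufficient replicate 2 or 3. The exception was *Alcam*, the ligand of CD6, at 12.8, 10.7 and 11.8 CPM in OGT-sufficient and 8.48, 4.79 and 6.79 CPM in OGT-deficient replicates 1 to 3 (log2 fold change -0.81, adjusted p = 0.551 by edgeR), which did not pass without OGT-deficient replicate 2. *Thy1* was abundant, at 198 to 273 CPM, with a log2 fold change of 0.13. With libraries scaled to T cell genes, *Slamf1*, *Cd2*, *Cd48* and *Cd96* no longer had an unadjusted p under 0.05, at log2 fold changes of 0.19, 0.20, 0.14 and 0.23, all with the same sign. Without the 2 libraries lowest in macrophage genes these 4 did not pass either, at 0.30, 0.19, 0.26 and 0.23, whereas *Alcam* did at -1.02. The part of a varying T cell share in these values was not tested.

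Of 7 tetraspanins tested, which organise integrins in the membrane, *Tspan32* alone was higher at an unadjusted p under 0.05, a call made for 3.09% of all genes tested. It was at 85.8 ± 8.46 and 105.2 ± 11.3 CPM (SD, n = 3), with an unadjusted p of 0.0492 and an adjusted p of 0.697 by edgeR. It passed in 6 of 16 alternative settings, and of the fits without 1 library only without OGT-sufficient replicate 1 and without OGT-deficient replicate 3. Its log2 fold change was 0.29, and 0.18 without the 2 libraries lowest in macrophage genes. *Cd82* (166 to 306 CPM) and *Cd53* (179 to 220.3 CPM) had log2 fold changes of 0.06 and -0.08. *Cd82* was lowest in OGT-sufficient replicate 3 and OGT-deficient replicate 1, the libraries lowest in macrophage markers.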
